A study of Arabidopsis thaliana with 6 samples.

Results

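HR1 (AT3G50450), HR2 (AT3G50460), HR3 (AT3G50470) and HR4 (AT3G50480) are the homologs of RPW8 that stand side by side on chromosome 3 of Arabidopsis thaliana. They were taken by locus identifier from a table of raw read counts for 37051 genes, of which they are 4. Of these 4 genes, HR3 and HR4 were higher in whole shoots of the mutant los2-5 than in the wild type Col-0, while HR1 had 2 reads and HR2 had 0 reads in 6 libraries together.

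The libraries were made by 3' RNA-seq, which reads the ends of transcripts, with 3 libraries from los2-5 and 3 from Col-0. The enolase gene LOS2, whose product works in glycolysis in the cytosol, gives los2-5 its name. Its lesion is not described in the labels, and no transgene or further treatment is given for either genotype. Plants of both genotypes were 2 weeks old and had grown on soil at 22 °C and 60% humidity, in unbroken light (100 µmol m-2 s-1), after 2 days at 4 °C. Each library pooled 3 plants, and the replicates of a genotype came from different pots. The series title asks whether the enolase holds back immunity through the genes of intracellular immune receptors, the NLR genes.

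RPW8 genes, found in some accessions of Arabidopsis, give broad resistance to powdery mildew fungi, and an RPW8 protein is delivered to the membrane around the feeding structure of the fungus. Col-0 lacks these genes and carries the HR genes at the same place. RPW8 resistance works through salicylic acid and the lipase-like proteins EDS1 and PAD4. Certain alleles of HR4 from other accessions cause hybrid necrosis when they meet certain NLR alleles. The RPW8 domain also forms the start of the helper NLR proteins of the ADR1 and NRG1 families, through which many immune receptors signal.

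In the RefSeq annotation of TAIR10.1 all 4 HR genes lie on the plus strand. HR1 spans chr3:18722234-18723310, HR2 chr3:18727666-18728810, HR3 chr3:18728935-18730497 and HR4 chr3:18733021-18734420. Their coding sequences are for proteins of 189, 205, 213 and 200 residues, and HR4 has a second annotated transcript with 3 exons in place of 2, for a protein of 144 residues. No other annotated gene overlaps any of the 4. HR2 and HR3 are separated by 124 bases, against gaps of 4355 bases between HR1 and HR2 and 2523 bases between HR3 and HR4. Coding sequences were most alike between HR2 and HR3, with 79.1% identity over 618 aligned bases. HR4 stood apart, with 61.4% identity to HR1, 62.8% to HR2 and 66.0% to HR3.

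The sequences before the annotated starts are shown because the HR genes differ so widely in level within one array. For HR1, HR2 and HR4 they are the 250 bases before the start, and for HR3 they are the whole 124 bases between it and HR2. All are from TAIR10.1, plus strand, 5′ to 3′, and capitals mark TTGAC or its reverse complement GTCAA, the core of the W box that WRKY factors bind. The windows are chr3:18721984-18722233 for HR1, chr3:18727416-18727665 for HR2, chr3:18728811-18728934 for HR3 and chr3:18732771-18733020 for HR4.
HR1: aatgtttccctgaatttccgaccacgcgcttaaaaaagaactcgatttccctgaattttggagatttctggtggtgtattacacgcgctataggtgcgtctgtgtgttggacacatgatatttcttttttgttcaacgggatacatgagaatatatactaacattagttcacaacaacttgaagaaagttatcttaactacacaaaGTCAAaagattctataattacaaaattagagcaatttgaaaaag
HR2: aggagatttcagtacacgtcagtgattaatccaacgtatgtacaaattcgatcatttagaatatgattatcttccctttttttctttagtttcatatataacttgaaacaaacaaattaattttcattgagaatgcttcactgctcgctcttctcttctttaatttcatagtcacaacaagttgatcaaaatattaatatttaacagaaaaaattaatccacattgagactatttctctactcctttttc
HR3: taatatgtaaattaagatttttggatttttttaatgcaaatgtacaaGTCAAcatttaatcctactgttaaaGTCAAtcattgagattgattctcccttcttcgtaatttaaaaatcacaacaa
HR4: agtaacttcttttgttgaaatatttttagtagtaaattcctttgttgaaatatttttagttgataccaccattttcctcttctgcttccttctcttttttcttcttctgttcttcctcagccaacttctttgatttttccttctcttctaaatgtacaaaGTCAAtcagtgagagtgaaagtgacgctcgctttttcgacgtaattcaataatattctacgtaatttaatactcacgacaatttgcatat

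On either strand, TTGAC was found at 2 places before HR3, at 1 before HR4, at 1 before HR1 and at 0 before HR2. Each of the 4 matches was also a match to the longer TTGACT, and TTGACC was found in none of the windows. Among the promoters of 27443 nuclear protein-coding genes, 44.9% held TTGAC and 19.1% held TTGACT within 250 bases. Within 124 bases, 26.1% held TTGAC, 10.3% held TTGACT and 1.07% held TTGACT 2 or more times, as HR3 did. The last share was computed only for this motif and the length of the HR3 window, and is a description. The motif TGACG, which TGA factors bind and which can overlap TTGAC, was found once before HR2 and once before HR4, against 18.6% of promoters with it in 250 bases. The longest run shared by any pair of windows, 11 bases, was aaaGTCAAtca in HR3 and HR4, and the other 5 pairs shared runs of 9 or 10 bases. These matches describe letters in the windows and show no binding.

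The HR genes could be told apart by their reads, with a limit for HR4. No stretch of 50 bases was shared between the annotated transcripts of any pair of them, and none from the exons of HR1, HR2 or HR3 occurred elsewhere in the genome. In HR4, 125 of 992 such stretches did. They fill the last 174 bases of the gene, where 3' reads are expected, and each occurred at a median of 11 other places. Of the 8 annotated loci that hold a copy, 7 had 0 reads in all libraries and AT4G16460 had 1, in los2-5. The labels give neither the read length nor the treatment of reads with several matches. The low counts at these loci thus say little about expression of the copies. The part of this repeat in the HR4 values was not tested.

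Library totals were 4454870, 4400433 and 4537653 counts in los2-5 replicates 1 to 3 and 3563033, 4291282 and 4598645 counts in Col-0 replicates 1 to 3. LOS2 itself had a log2 fold change of 0.08 ± 0.12 (SE; adjusted p = 0.71, edgeR), which checks nothing about the genotype where the tag lies outside the lesion. On the first principal component los2-5 replicate 1 lay at 20.8, against 38.8 and 40.3 for the other los2-5 libraries and -29.5 to -35.8 for Col-0. The 5 leaf markers summed to 33325 to 41516 CPM (counts scaled to library size, with TMM factors) in los2-5 and 43943 to 49249 CPM in Col-0. RBCS1A, RBCS2B and PSAF, 3 of the 5, were called lower in edgeR, against 10.6% of all tested genes. CAB2 (log2 fold change -0.04) and LHCB2.2 (-0.16) were not called. Of 5 root markers, PYK10 was at 58.7 ± 10.9 CPM in los2-5 and 61.8 ± 7.55 CPM in Col-0 (SD, n = 3 each), and the other 4 had at most 1 read in any library. The 3 seed markers held 1 read in all. The 4 flower markers summed to 0.434 to 1.30 CPM in los2-5 and 0.905 to 2.66 CPM in Col-0. The part of the leaf marker shift in the results below was not tested, and in whole shoots a change in the share of a cell type cannot be told apart from a change of RNA per cell.

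HR4 rose in los2-5. It had 59, 86 and 53 reads in los2-5 replicates 1 to 3, and 17, 13 and 16 reads in Col-0 replicates 1 to 3. As CPM these were 12.7, 18.5 and 11.5 in los2-5, against 5.02, 3.19 and 3.62 in Col-0. Every los2-5 library was thus above every Col-0 library, and replicate 2 was the highest of the mutant. The means were 14.2 ± 3.72 CPM in los2-5 and 3.94 ± 0.95 CPM in Col-0 (SD, n = 3 each). The fold was 3.64 (95% interval 2.49 to 5.33), a log2 fold change of 1.87 ± 0.26 (SE), and the edgeR quasi-likelihood test over 13952 genes gave adjusted p = 2.8e-05.

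HR3 rose as well, on far fewer reads. Its counts were 12, 27 and 27 in los2-5 replicates 1 to 3, and 4, 9 and 5 in Col-0. As CPM they were 2.59, 5.80 and 5.86 in los2-5, against 1.18, 2.21 and 1.13 in Col-0. The groups did not overlap, but los2-5 replicate 1 (2.59 CPM) came close to Col-0 replicate 2 (2.21 CPM), and the exact 95% Poisson intervals of their counts, 6.20 to 21.0 and 4.12 to 17.1, overlapped. The means were 4.75 ± 1.87 CPM in los2-5 and 1.51 ± 0.61 CPM in Col-0 (SD, n = 3 each). The fold was 3.10 (95% interval 1.71 to 5.60), a log2 fold change of 1.63 ± 0.41 (SE), and edgeR gave adjusted p = 0.0068. Leaving out Col-0 replicate 3 brought the log2 fold change to 1.43 and the adjusted p to 0.053, and over 13 alternatives the adjusted p lay between 7.6e-04 and 0.053.

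HR1 and HR2 were at or under the limit of detection. HR1 had 2 reads in los2-5 replicate 1 and 0 in the other 5 libraries, and HR2 had 0 in all 6. With 3 counts as the limit that a count of 0 allows, HR2 could stand at up to 0.216 CPM in los2-5 and 0.253 CPM in Col-0, and the Col-0 limit holds for HR1 too. No fold is given for either gene, and a difference between genotypes was not detectable at this depth. These limits and the Poisson intervals cover counting error alone.

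**Figure D1:**
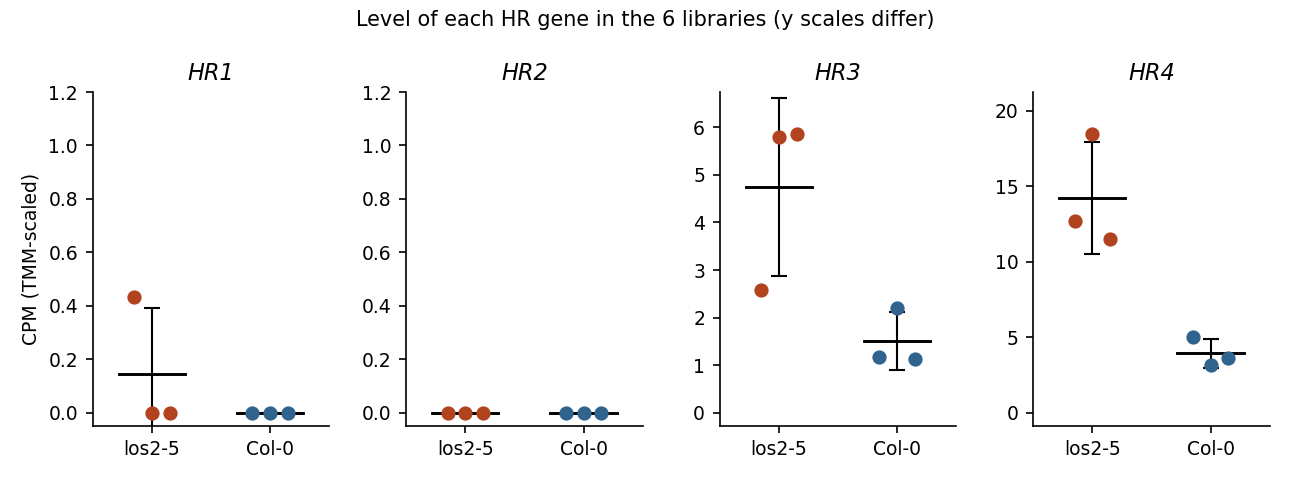
CPM of HR1, HR2, HR3 and HR4 in each library, with los2-5 left and Col-0 right in each panel; points are libraries, bars the mean and the whiskers the SD (n = 3), and y scales differ between panels. HR4 lies at 11.5 to 18.5 CPM in los2-5 and 3.19 to 5.02 CPM in Col-0, HR3 at 2.59 to 5.86 CPM in los2-5 and 1.13 to 2.21 CPM in Col-0, and HR1 and HR2 at or near 0.

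The 2 HR genes called higher, at an adjusted p up to 0.05, are read against 9.92% of the 13952 tested genes called higher and 10.6% called lower, 20.5% in all (1384 and 1477 genes, or 2179 and 989 when libraries were scaled by size alone). The 2 HR genes without overlap between genotypes are read against 18.7% of tested genes that were higher without overlap and 18.6% that were lower, 37.2% in all. HR1 and HR2 were not tested. HR3 met the minimum count in 3 los2-5 libraries and in 0 Col-0 libraries, so that it could enter the test only where it was higher in los2-5, whereas HR4 met it in all 6. Without the filter the log2 fold changes were 1.63 ± 0.40 for HR3 and 1.86 ± 0.26 for HR4 (SE; adjusted p = 7.6e-04 and 8.3e-11, edgeR). The estimates and their SE hardly moved, so the smaller adjusted p values are not further evidence. Ranked by fold among the 1384 genes called higher, HR4 was at place 183 and HR3 at place 229. By mean CPM over all libraries HR4 stood at percentile 41.8 of the tested genes and HR3 at percentile 9.25.

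HR4 was the more abundant of the pair in both genotypes. Per kilobase of exon, HR4 was at 12.8 CPM in los2-5 and 3.56 CPM in Col-0, and HR3 was at 4.00 CPM in los2-5 and 1.27 CPM in Col-0. With 3' tags a count hardly depends on length, and CPM without this correction gave the same order. HR4 made up 83.1%, 76.1% and 66.2% of the reads of both genes in los2-5 replicates 1 to 3, and 81.0%, 59.1% and 76.2% in Col-0. Summed over libraries the share was 75.0% in los2-5 (exact binomial 95% interval 69.3 to 80.1%) and 71.9% in Col-0 (59.2 to 82.4%).

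Whether HR4 responded more than HR3 could not be told at this depth. The log2 ratio of HR4 to HR3, computed on counts plus 0.5, was 1.62 ± 0.65 in los2-5 and 1.35 ± 0.75 in Col-0 (SD, n = 3 each). The difference of 0.27 had p = 0.60 in an exact two-sided permutation test, the 1 pair compared, and 3 libraries against 3 cannot give a p below 0.10. The difference ran from -0.15 to 0.60 when single libraries were left out. It turned negative without los2-5 replicate 1 (-0.044) and without Col-0 replicate 2 (-0.15), and these values do not show that the genes responded alike.

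The 4 HR genes together were at 15.8, 24.3 and 17.4 CPM in los2-5 replicates 1 to 3, and 6.20, 5.41 and 4.75 CPM in Col-0.

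Of 11 loci from AT3G50400 to AT3G50530 around the HR genes, 5 were tested, with 0 called higher, against 9.92% of all tested genes, and 2 called lower, against 10.6%, in edgeR (0 higher also at an unadjusted p under 0.05, in DESeq2 and in limma-voom). Their median log2 fold change was -0.47, against 0.02 over all tested genes. The nearest tested gene before HR1 is MES10, a methylesterase gene, at 13.5 ± 1.84 CPM in los2-5 and 18.7 ± 2.36 CPM in Col-0 (SD, n = 3 each; log2 fold change -0.47 ± 0.19, adjusted p = 0.079, edgeR). The nearest tested gene after HR4 is SNRK2.2, which encodes a kinase of abscisic acid signalling. It fell to 45.1, 30.1 and 36.0 CPM in los2-5, against 64.3, 61.2 and 67.8 CPM in Col-0 (log2 fold change -0.80 ± 0.15, adjusted p = 7.0e-04, edgeR).

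Of the other 3, AT3G50520, described as a phosphoglycerate mutase family gene, was lower by -0.73 ± 0.26 (adjusted p = 0.048, edgeR), a call lost in 7 of 13 alternatives with adjusted p up to 0.27. OBP1, a transcription factor gene, was at 0.17 ± 0.41 and turned to -0.031 without los2-5 replicate 2. CRK, a CDPK-related kinase gene, was at -0.01 ± 0.19 and turned to 0.11 when libraries were scaled by size alone. The pseudogene AT3G50490, which lies next to HR4 and holds a copy of its repeat, had 0 reads, which says little about expression of that copy.

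**Figure D2:**
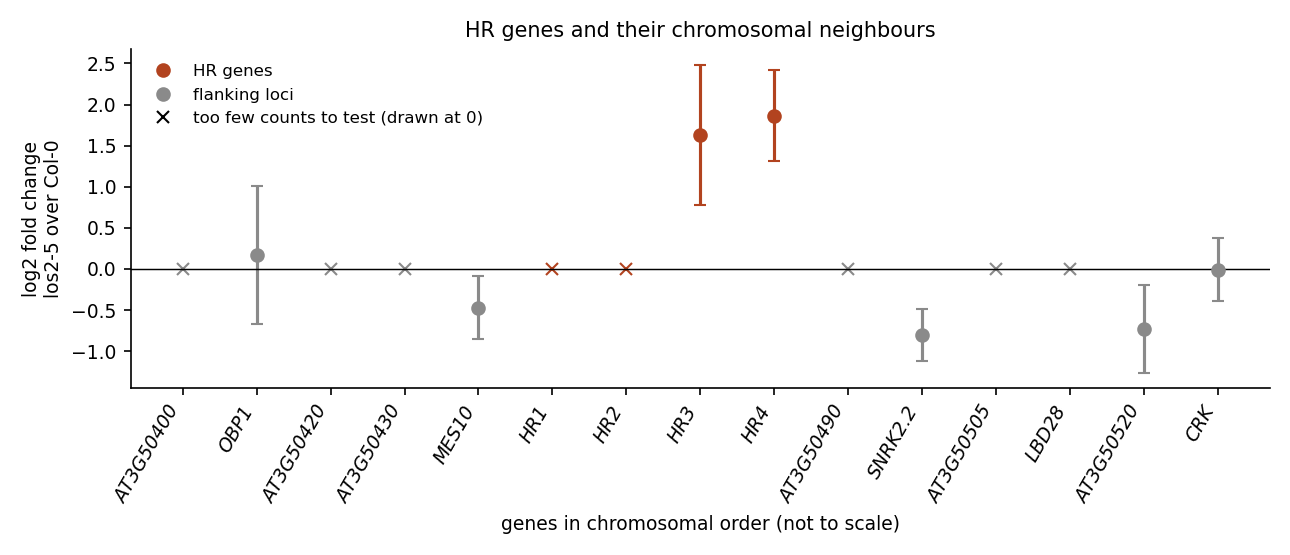
Log2 fold change (los2-5 over Col-0, 95% interval) of HR1 to HR4 and 11 flanking loci in chromosomal order, with crosses at 0 for loci with too few counts to test. HR3 (1.63) and HR4 (1.87) lie above 0, between MES10 (-0.47) and SNRK2.2 (-0.80).

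Across the genome 11 loci carry RPW8 in their reference description, and 9 of these were tested. Of the 9, 7 were called higher (6 in DESeq2), against 9.92% of all tested genes, and 0 lower, against 10.6%, in edgeR. At an unadjusted p under 0.05, in DESeq2 and in limma-voom, 0 were lower as well. The median log2 fold change was 1.63, the value of HR3 itself, against 0.02 over all tested genes. Without the HR genes, 7 loci were tested. Of these, 5 were called higher, against 9.92%, and 0 lower, against 10.6%, with a median of 1.07 (edgeR). HR3, DAR5 and AT3G26470 met the minimum count in los2-5 but in at most 1 Col-0 library each. They thus entered the test only through the genotype in which they were higher, and these counts and medians are a description. The list was drawn up with earlier results of these data known.

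Of 7 helper NLR genes of the ADR1 and NRG1 kind, 5 were tested, with 3 called higher (2 in DESeq2), against 9.92% of all tested genes, 0 lower, against 10.6%, in edgeR (0 also at an unadjusted p under 0.05, in DESeq2 and in limma-voom) and a median of 0.82. ADR1 had 14.5, 15.3 and 18.2 CPM in los2-5, against 4.13, 5.16 and 4.52 CPM in Col-0, a log2 fold change of 1.78 ± 0.23 (adjusted p = 7.8e-06, edgeR). Its groups did not overlap, and its 95% interval of 1.31 to 2.25 stands beside 0.78 to 2.49 for HR3 and 1.32 to 2.41 for HR4. Differences between these genes were not tested. Its paralog ADR1-L1, which shares bases with annotated neighbours, was at 42.7, 47.3 and 43.9 CPM in los2-5 and 25.1, 26.5 and 24.0 CPM in Col-0 (0.82 ± 0.15, adjusted p = 3.6e-04, edgeR). ADR1-L2 was at 12.9 ± 1.93 CPM in los2-5 and 10.4 ± 2.52 CPM in Col-0 (SD, n = 3 each) and was not called (0.33 ± 0.22). ADR1-L3 had 0 reads in every library.

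The NLR locus AT5G66910 rose to 6.69, 8.38 and 6.95 CPM in los2-5, against 5.02, 3.19 and 2.49 CPM in Col-0 (1.07 ± 0.29, adjusted p = 0.012, edgeR). The call was lost in DESeq2 (adjusted p = 0.052) and on leaving out Col-0 replicate 3 (0.098), with adjusted p between 0.0053 and 0.098 in the alternatives. Its neighbour AT5G66900 was not called (0.53 ± 0.21, adjusted p = 0.068, edgeR), although its libraries did not overlap; the adjusted p was 0.027 with scaling by library size alone and 0.035 on leaving out Col-0 replicate 3, and reached 0.29 in other alternatives. AT5G66890 had 4 reads in los2-5 and 0 in Col-0.

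The remaining RPW8-described loci, named here after their values were seen, are DAR5, whose description joins the RPW8 domain to an NB-ARC and a LIM domain, and AT3G26470, described as an RPW8 domain-containing protein. DAR5 had 3.67, 5.59 and 4.78 CPM in los2-5, against 0.89, 1.97 and 0.90 CPM in Col-0, a log2 fold change of 1.87 ± 0.40 (adjusted p = 0.0018, edgeR). AT3G26470 had 4.75, 5.59 and 5.64 CPM in los2-5, against 0.89, 2.46 and 0.68 CPM in Col-0 (1.96 ± 0.40, adjusted p = 0.0012, edgeR). Leaving out Col-0 replicate 2 moved its log2 fold change to 2.74. DAR5 had 65 reads in los2-5 and 15 in Col-0, and AT3G26470 had 74 in los2-5 and 16 in Col-0. Both had Col-0 replicate 2 as their highest wild-type library, as HR3 did.

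**Figure D3:**
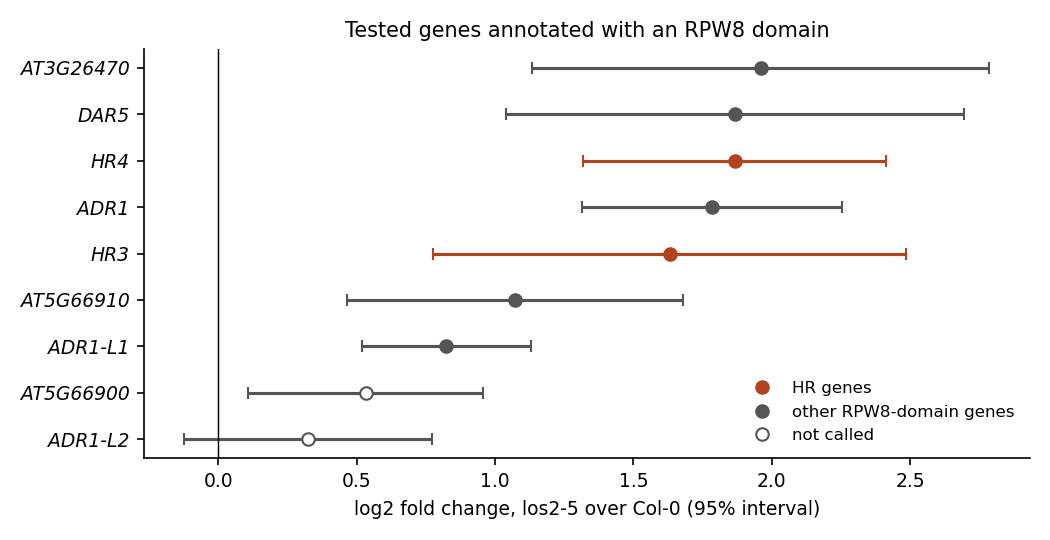
Log2 fold change (los2-5 over Col-0) with 95% interval of the 9 tested loci described with RPW8; filled points passed an adjusted p of 0.05 and open points did not. All 9 values are above 0, from 0.33 for ADR1-L2 to 1.96 for AT3G26470, with HR3 at 1.63 and HR4 at 1.87. Of the 13952 tested genes, 7203 had values above 0. HR3, DAR5 and AT3G26470 met the minimum count in at most 1 Col-0 library each, and so entered the test only through los2-5.

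Genes known to act in RPW8 resistance or to regulate it were taken as a list of 13. All 13 were tested: 7 were called higher (6 in DESeq2 and in limma-voom), against 9.92% of all tested genes, and 0 lower, against 10.6%, in edgeR (0 lower also at an unadjusted p under 0.05, in DESeq2 and in limma-voom), with a median log2 fold change of 0.71. The salicylic acid synthesis gene EDS16 rose by 2.12 ± 0.21 and EDS5, whose product exports its precursor from the plastid, by 1.95 ± 0.30. PAD4 rose by 1.97 ± 0.18, EDS1 by 1.57 ± 0.20 and SAG101, which encodes the other partner of EDS1, by 1.05 ± 0.29. For HR3 and HR4 the values of 1.63 and 1.87 stand in this range. NPR1, a salicylic acid receptor gene, rose by 0.71 ± 0.20. The other called gene, CAMTA3, named after its value was seen, encodes a transcription factor known to repress salicylic acid immunity. CAMTA3 rose by 0.77 ± 0.26 (adjusted p = 0.041, edgeR) and was not called in DESeq2 or in limma-voom. The SAG101 and NPR1 calls were each lost in 2 of 13 alternatives, with adjusted p up to 0.085 for SAG101 and 0.13 for NPR1.

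PAD4 was at 111, 128 and 171 CPM in los2-5 replicates 1 to 3, against 42.2, 36.1 and 27.1 CPM in Col-0. EDS16 was at 69.3, 88.3 and 121 CPM in los2-5, against 25.4, 23.6 and 15.8 CPM in Col-0. Neither gene overlapped between genotypes, and both were highest in los2-5 replicate 3, as were EDS1, EDS5 and CAMTA3. SAG101 and HR4 were highest in replicate 2. NPR1 was nearly equal in replicates 1 and 3 (24.2 and 24.1 CPM), and HR3 in replicates 2 and 3 (5.80 and 5.86 CPM). The 6 not called were EDR1 (0.20 ± 0.27) and EDR2 (-0.08 ± 0.26), whose mutants are more resistant to powdery mildew, and PAPP2C (0.25 ± 0.14), GRF6 (-0.05 ± 0.12), VAMP721 (0.18 ± 0.14) and VAMP722 (-0.02 ± 0.16).

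A list of 11 genes of powdery mildew entry and callose had 9 tested, 2 called higher, against 9.92% of all tested genes, and 0 lower, against 10.6%, in edgeR (0 lower also at an unadjusted p under 0.05, in DESeq2 and in limma-voom), and a median of 0.25. The 2 calls higher became 1 when los2-5 replicate 2, los2-5 replicate 3 or Col-0 replicate 3 was left out, and a share near that of all genes is no result about the list. The syntaxin gene SYP122 rose by 0.92 ± 0.21 and the callose synthase gene PMR4 by 0.40 ± 0.13, a call lost in 4 of 13 alternatives with adjusted p up to 0.15. The susceptibility gene MLO2 was at 0.25 ± 0.17 and the penetration resistance genes PEN1, PEN2 and PEN3 at 0.21 ± 0.15, 0.03 ± 0.13 and -0.01 ± 0.15, none of them called.

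Of 10 NB-ARC disease resistance loci on chromosome 1, between AT1G58390 and AT1G59780, 5 had 0 reads and 2 were tested. AT1G58602 rose to 224, 272 and 339 CPM in los2-5, against 117, 130 and 133 CPM in Col-0 (log2 fold change 1.14 ± 0.14, adjusted p = 5.3e-06, edgeR), and like PAD4 it was highest in los2-5 replicate 3. Of the 251 stretches of 50 bases in the end of its transcript, 112 occur elsewhere in the genome, so its value is uncertain. CW9, named after its value was seen, was at 0.73 ± 0.33 and not called (adjusted p = 0.12, edgeR). Of the 5 loci at 0, AT1G58807, AT1G58848, AT1G59124 and AT1G59218 share 99.3% to 100% of their 50-base stretches with other places in the genome, so that their 0 says little about expression.

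The genes whose profile over the 6 libraries was nearest to each HR gene were found among those with a mean of at least 5 CPM. Likeness was the root mean square difference of log2 CPM after the mean of each gene was taken off. This log2 CPM used a prior count of 2, which shrinks differences most in genes with few reads, such as HR3. The log2 fold changes given for the matched genes are from the edgeR fit, so the 2 measures are unlike. HR4 had the nearest profiles in AT3G07195, described as a RIN4 family protein (0.12), the protein kinase gene AT1G66880 (0.14), the uncharacterized AT1G23840 (0.17) and the transporter family gene AT2G39210 (0.19), out of 10742 genes. Their log2 fold changes were 1.92, 1.64, 1.87 and 1.93, and each was highest in los2-5 replicate 2, as was HR4, which the choice by profile largely fixes.

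For HR3 they were NPR3, which encodes a salicylic acid receptor related to NPR1 (0.17), THO2, a gene of the THO complex of messenger RNA export (0.20), ELIP1, described as a chlorophyll A-B binding family protein (0.24), and the zinc finger gene AT3G21810 (0.25), out of 10743 genes. Their log2 fold changes were 1.42, 1.08, 1.18 and 1.36, and all 4 had los2-5 replicate 1 as their lowest mutant library, as had HR3, which the same choice largely fixes. THO2 and ELIP1 overlapped between genotypes, and their calls were lost in 4 of 13 alternatives each, and leaving out Col-0 replicate 2 moved ELIP1 to 1.80. HR3 and HR4 were farther from each other, at 0.54, and 732 of these genes were nearer to HR3 than HR4 was. With 4 to 27 reads per library, counting error is a large part of the HR3 profile.

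**Figure D4:**
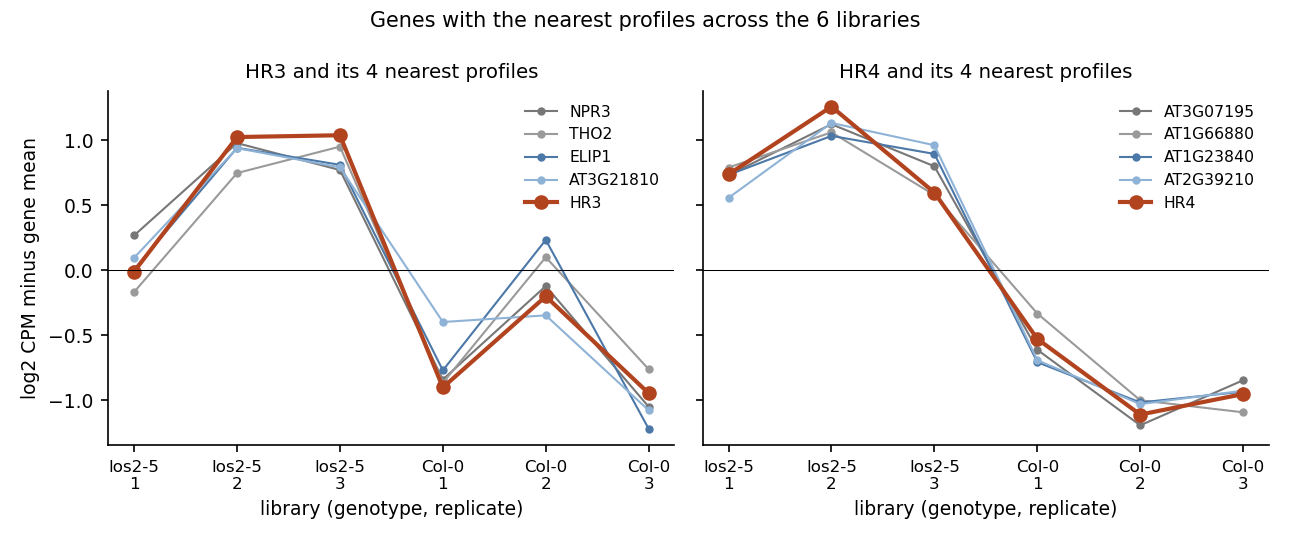
Log2 CPM minus the mean of each gene in the 6 libraries (los2-5 replicates 1 to 3, then Col-0 replicates 1 to 3) for HR3 and HR4 in thick red and the 4 genes with the nearest profile to each. HR3 is lowest among mutant libraries in replicate 1 and highest among Col-0 libraries in replicate 2, and HR4 is highest in los2-5 replicate 2.

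HR3 and HR4 were higher in los2-5 under each of 13 alternatives of filter, scaling, test and left-out library. HR4 was called under all 13 alternatives, with log2 fold changes from 1.64 to 2.04, and HR3 under 12 of 13, with values from 1.43 to 2.01.

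**Figure D5:**
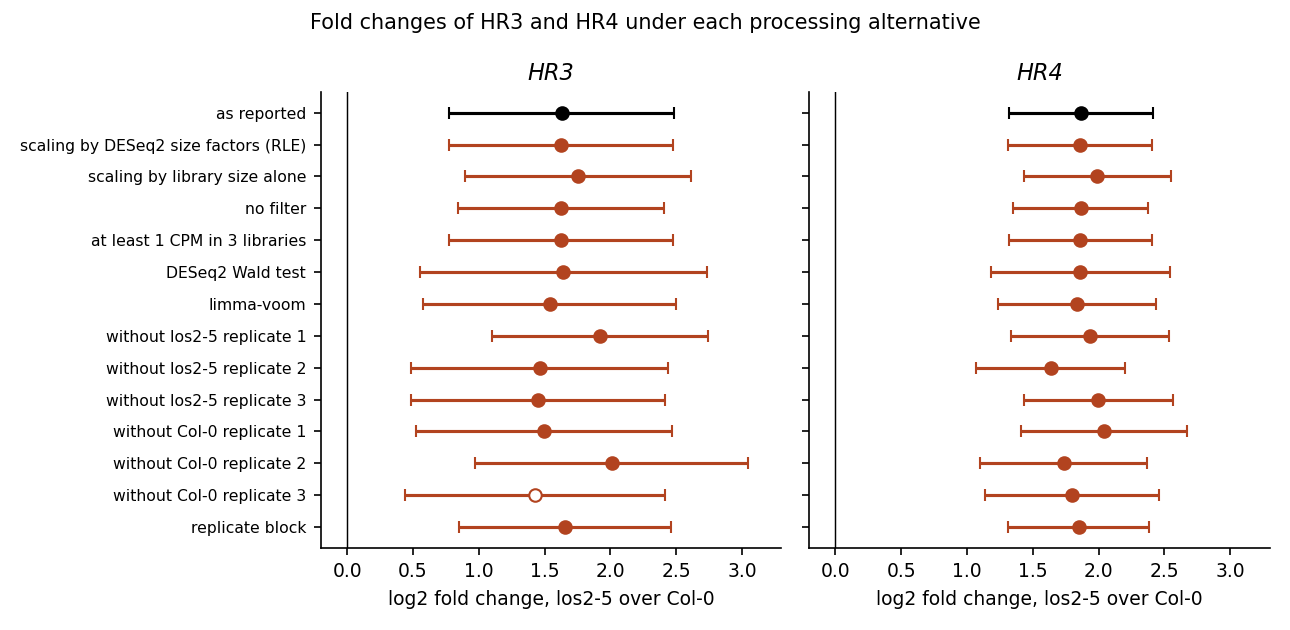
Log2 fold change (los2-5 over Col-0, 95% interval) of HR3 and HR4 as reported, in black, and under 13 alternatives, in red; open points have an adjusted p above 0.05. The single open point is HR3 without Col-0 replicate 3, at 1.43.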

How the data were processed

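The authors deposited raw read counts per gene, used as deposited. Per the labels' protocols, libraries were 3' RNA-seq from whole shoots and RNA was extracted with TRIzol. STAR, edgeR and the build TAIR10 are named, without versions, per the submitters' processing notes. No counting tool, annotation or strand setting is given in the sources used here, so overlapping genes may share reads. Among the called genes checked, those found to overlap annotated neighbours were ADR1-L1, EDS5, NPR1, CAMTA3 and AT1G58602. The flanking loci, the genes with the nearest profiles, DAR5 and AT3G26470 were not checked for this. Positions and sequences came from the RefSeq assembly TAIR10.1 and its annotation, whose locus tags matched all 37051 identifiers. The count table holds no coordinates, so none were converted.

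Genes were filtered with filterByExpr (minimum count 10, total 15), which kept 13952 genes with 99.5% of the counts. They were scaled by TMM and tested with genotype as the sole term in edgeR 4.0.16 (quasi-likelihood, robust; R 4.3.3). Benjamini-Hochberg adjustment ran over the 13952 genes, with calls at 0.05. The standard error is the absolute log2 fold change over the square root of F. DESeq2 1.42.0 and limma-voom (limma 3.58.1) were alternatives, along with other scalings and filters, leaving out each library and a replicate block. The procedure was tested on simulated data.

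The HR genes, the gene lists and the tests were chosen with earlier results of these data known. Genes named were the HR genes, LOS2, the tested helper NLR and flanking genes, up to 6 called genes of each other list, and the 4 nearest profiles of each tested HR gene. Members of the signalling and powdery mildew lists that were not called are given as values outside this rule. Alignments used Biopython 1.88.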

Additional observations from a re-analysis of the deposited data

How the results depend on the processing

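HR4 was called under all 13 alternatives. Leaving out single libraries gave HR3 log2 fold changes of 1.43 to 2.01, 1 to 2 HR genes called higher, 831 to 1537 genes called higher and 927 to 1606 called lower. The lowest of these counts came without Col-0 replicate 3. The same exercise gave 1 to 3 powdery mildew genes called higher, 1 to 2 flanking loci called lower, and -0.15 to 0.60 for the difference between HR4 and HR3. Values for OBP1 then ran from -0.031 to 0.41 and for CRK from -0.12 to 0.069.

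Scaling by library size alone shifted log2 fold changes by a median of 0.12, with 2179 genes called higher, 4 powdery mildew genes higher, 1 flanking locus lower, and CRK at 0.11. DESeq2 and limma-voom each called 1 flanking locus lower. With the replicate block HR3 was at 1.66 and HR4 at 1.85, and the HR calls held. Deviations of same-numbered libraries from their group means correlated at 0.05, -0.00068 and -0.05. Those of libraries with different numbers correlated at -0.05 to 0.05. These values give no sign that the numbers pair the libraries and cannot exclude it. Over 30 other named genes, 357 of 390 values kept direction and call, 25 lost the call, 2 gained it and 6 turned. Depth limits HR1, HR2 and HR3 most. The cause of these changes was not tested.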
